A study of Mus musculus with 9 samples.

Results

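The comparison described here is that of the adult mouse central nervous system at postnatal day 60 (P60) against brain of the embryo at E14.5, counted in days from conception, across all genes with enough reads to test. The members were the 17971 genes that passed a filter on low counts, of 45706 gene identifiers in the count table, and 6 of the 9 libraries of the series carry the comparison. All libraries came from whole tissue of C57BL6/J mice with no treatment listed, 3 per stage. E14.5 samples were brains freed of meninges. P60 samples were taken from the skull after the mice were anaesthetised with ketamine and xylazin and perfused with saline, so stage, anaesthesia, perfusion and dissection cannot be told apart. The labels do not say whether the libraries of a stage came from separate animals, and the p-values below therefore measure only the spread between these samples. The extracts were described as total RNA, and the cDNA was primed on poly(A) tails and amplified over its full length by PCR from about a nanogram of RNA.

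At E14.5 the mouse brain holds dividing progenitors along the ventricles and young neurons that migrate and extend axons. By P60 neurogenesis has ended in most regions, circuits are in use, and oligodendrocytes have wrapped axons in myelin. Genes are grouped below by what their products do, and each group is set against a trend that ran through the whole comparison: the longer the transcript, the lower its level at P60 relative to E14.5.

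Library totals were 32194254 to 33685108 counts at E14.5 and 31288920 to 35619093 counts at P60. Levels are given as CPM, which are read counts scaled to a common library total, and changes as the log2 of P60 over E14.5. Over genes, log2 CPM correlated at 0.98 to 0.993 within a stage and at 0.762 to 0.817 across the stages, given as a description. The tissue labels held against marker genes of glia and progenitors. Summed levels were 65.3 to 94.0 CPM at E14.5 and 13100 to 15200 CPM at P60 for 6 oligodendrocyte markers. For 6 progenitor markers they were 1530 to 2120 CPM and 99.9 to 125 CPM, and for 6 astrocyte markers 238 to 399 CPM and 2230 to 2730 CPM. The 9 neuron markers did not move as a set: 5 were called higher and 2 lower, with sums of 3930 to 5100 CPM at E14.5 and 6060 to 7210 CPM at P60. Other tissues were present unequally. Red blood cell markers summed to 1060 to 2000 CPM at E14.5 and 27.5 to 115 CPM at P60, and 7 markers of meninges and fibroblasts to 531 to 1060 and 87.9 to 104 CPM. The sum of 6 choroid plexus markers went from 537 to 785 CPM to 1920 to 4420 CPM, nearly all of it Ttr, and 3 of the 6 were called higher and 1 lower. These marker sums are scaled by library totals alone, and the values of single genes below by TMM-adjusted totals. The labels give no sex, and the sex-linked genes were not balanced between the stages. Kdm5d, a demethylase on the Y chromosome, had 46.1, 56.2 and 0.03 CPM at E14.5 and 0.03, 0 and 0 CPM at P60. Xist, the RNA that silences an X chromosome, had 0.30, 0.42 and 1038 CPM at E14.5 and 22.7, 37.5 and 21.3 CPM at P60. Y-linked RNA was thus present in E14.5 libraries 1 and 2 and nearly absent from E14.5 library 3 and from all 3 P60 libraries, and its part in other differences was not tested. In bulk samples fewer cells of a type and less RNA per cell cannot be told apart.

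Of the genes tested, 76.1% were called (edgeR quasi-likelihood test, Benjamini-Hochberg adjusted p under 0.05), 36.7% higher and 39.4% lower at P60. A change of at least 2-fold was called for 27.1% in the higher and 29.7% in the lower direction. The libraries of the stages did not overlap for 76.3% of genes. Because most genes were called, the counts of each family below are read against these shares.

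Short transcripts were higher and long transcripts lower at P60. Over 17889 genes with an annotated transcript, the change fell by 0.35 on the log2 scale with each doubling of the longest transcript (Spearman rho -0.252, a description over genes, which are not independent). Among the 10% of genes with the shortest transcripts (median 782 bases) 44.0% were called higher and 26.8% lower. Among the 10% with the longest, 15.1% were higher and 63.6% lower, and the median change was -1.19. The slope was -0.73 among 15471 protein-coding genes and -0.77 among genes with a mean of at least 10 CPM, and it was 0.001 over genes that code for no protein. Among protein-coding genes the length of the coding sequence followed the change more closely (rho -0.311) than the length of the 3' UTR (-0.185) or the span of the gene in the genome (-0.133), and the GC content of the transcript hardly at all (-0.019).

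**Figure D1:**
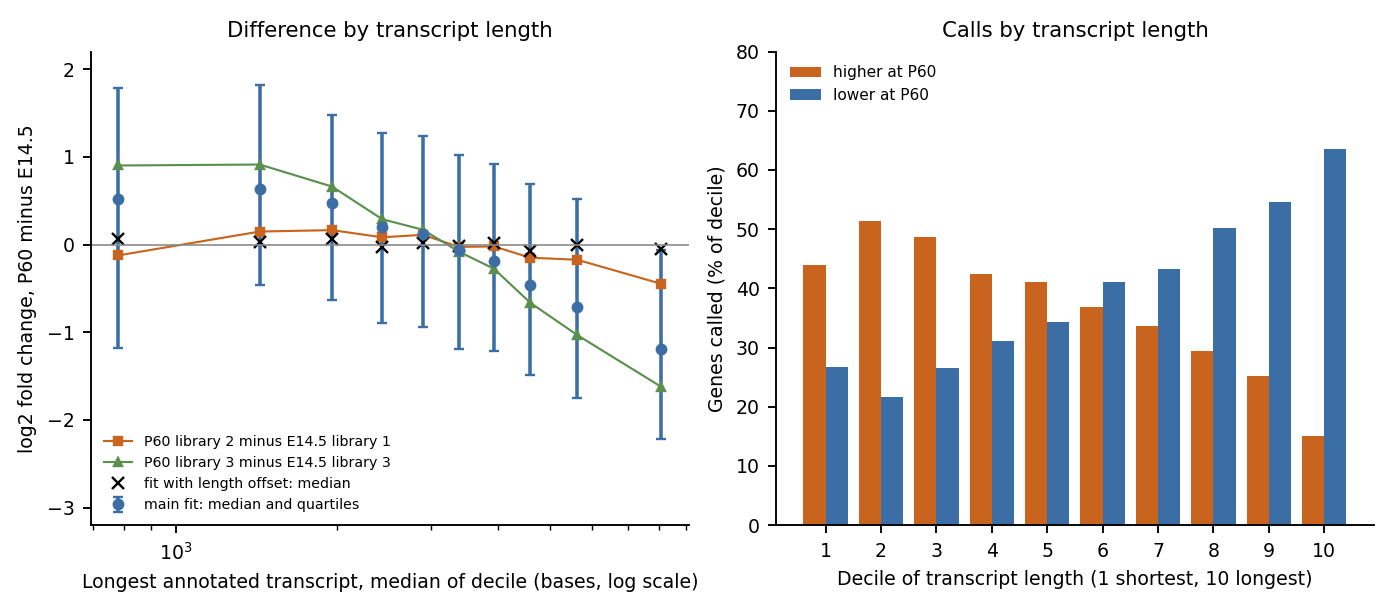
Left, log2 fold change (P60 minus E14.5) by decile of transcript length: median and quartiles of the test over all libraries, the medians of 2 single library pairs, and the medians after a length offset; right, the percentage of each decile called higher or lower. Medians fall from 0.52 in the shortest to -1.19 in the longest decile, and from -0.12 to -0.45 in the pair P60 library 2 and E14.5 library 1.

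Libraries of the same stage differed by length as well. Among protein-coding genes the slope of a single library pair ranged from -0.99 to -0.27 in the 9 pairs across stages. It ranged from -0.01 to 0.34 in the 3 pairs within E14.5 and from -0.38 to 0.26 in the 3 pairs within P60. E14.5 library 1 stood apart from the other E14.5 libraries, and P60 library 2 from the other P60 libraries, each towards the other stage. They form the pair with the slope nearest 0, which is called the matched pair below. The name refers to length only and not to a pairing of the samples. This pair was picked after the data were seen, kept a slope of -0.27, and is part of the test over all libraries. The share of reads on cytosolic ribosomal proteins, whose transcripts are short, varied in the same way: 4.09, 2.42 and 2.40% in E14.5 libraries 1 to 3, and 3.79, 2.29 and 4.10% in P60 libraries 1 to 3. The part of library preparation in the length trend was not tested. The direction across stages was negative in all 9 pairs, while its size differed more than 3-fold between them.

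**Figure D2:**
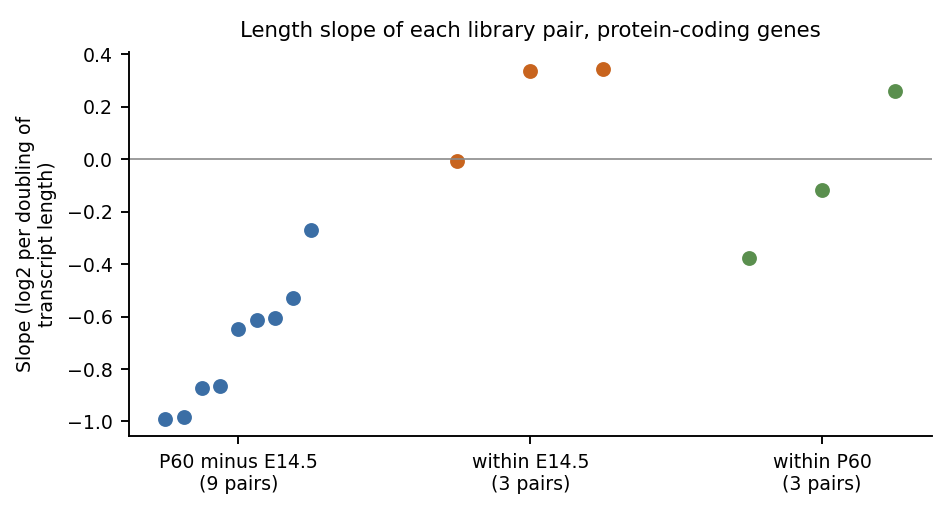
Slope of the log2 difference per doubling of transcript length for each pair of libraries over protein-coding genes; each point is a pair. All 9 pairs across stages lie below 0, from -0.99 to -0.27, and pairs within a stage reach 0.34 at E14.5 and -0.38 at P60.

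Each family was therefore read in 3 further ways. The first is its median distance from the trend, which is the change minus the smoothed change of genes of the same length. The second is a refit in which each library's own length trend was taken off as an offset, under which 13923 genes (77.8%) were called, 39.1% higher and 38.7% lower. The third is the matched pair, a difference of 2 libraries with no test. Under the offset 5959 of the genes called higher and 6144 of those called lower kept their call, 116 genes called lower were called higher, and none went from higher to lower. Those 116 genes had a median longest transcript of 8492 bases and none was shorter than 5680 bases. They included Cntnap2, a neuronal adhesion molecule of the node region (-0.43, then 0.82), the presynaptic scaffold Bsn (-0.96, then 0.65) and the growth kinase Mtor (-0.69, then 0.50), chosen after their values were seen.

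Across 87 families, 43 had a median at least 1 log2 unit from 0, of which 23 were positive and 20 negative. Every one of these 43 medians kept its sign in all 9 library pairs. The pairs are formed from the same libraries by which these families were picked, so this is no independent support. All 43 also kept it against the length trend, but the cut at 1 log2 unit nearly fixed that outcome. The median trend at the members of a family ran only from -0.98 to 0.65. Within families the trend recurred: the change fell with length in 70 of the 84 families with at least 8 tested members, and in 33 after the offset. The median changed sign against the trend in 7 families, namely cytosolic ribosomal proteins, RNA polymerase II subunits, RNA exosome subunits, nuclear receptors, aminoacyl-tRNA synthetases, myosin heavy chains and voltage-gated calcium channels. These had medians between -0.04 and 0.38, and a trend of that size could turn only medians near 0. For 36 families the median lay further from 0 once the trend was taken off, among them potassium channels, GABA-A receptor subunits and postsynaptic scaffolds.

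**Figure D3:**
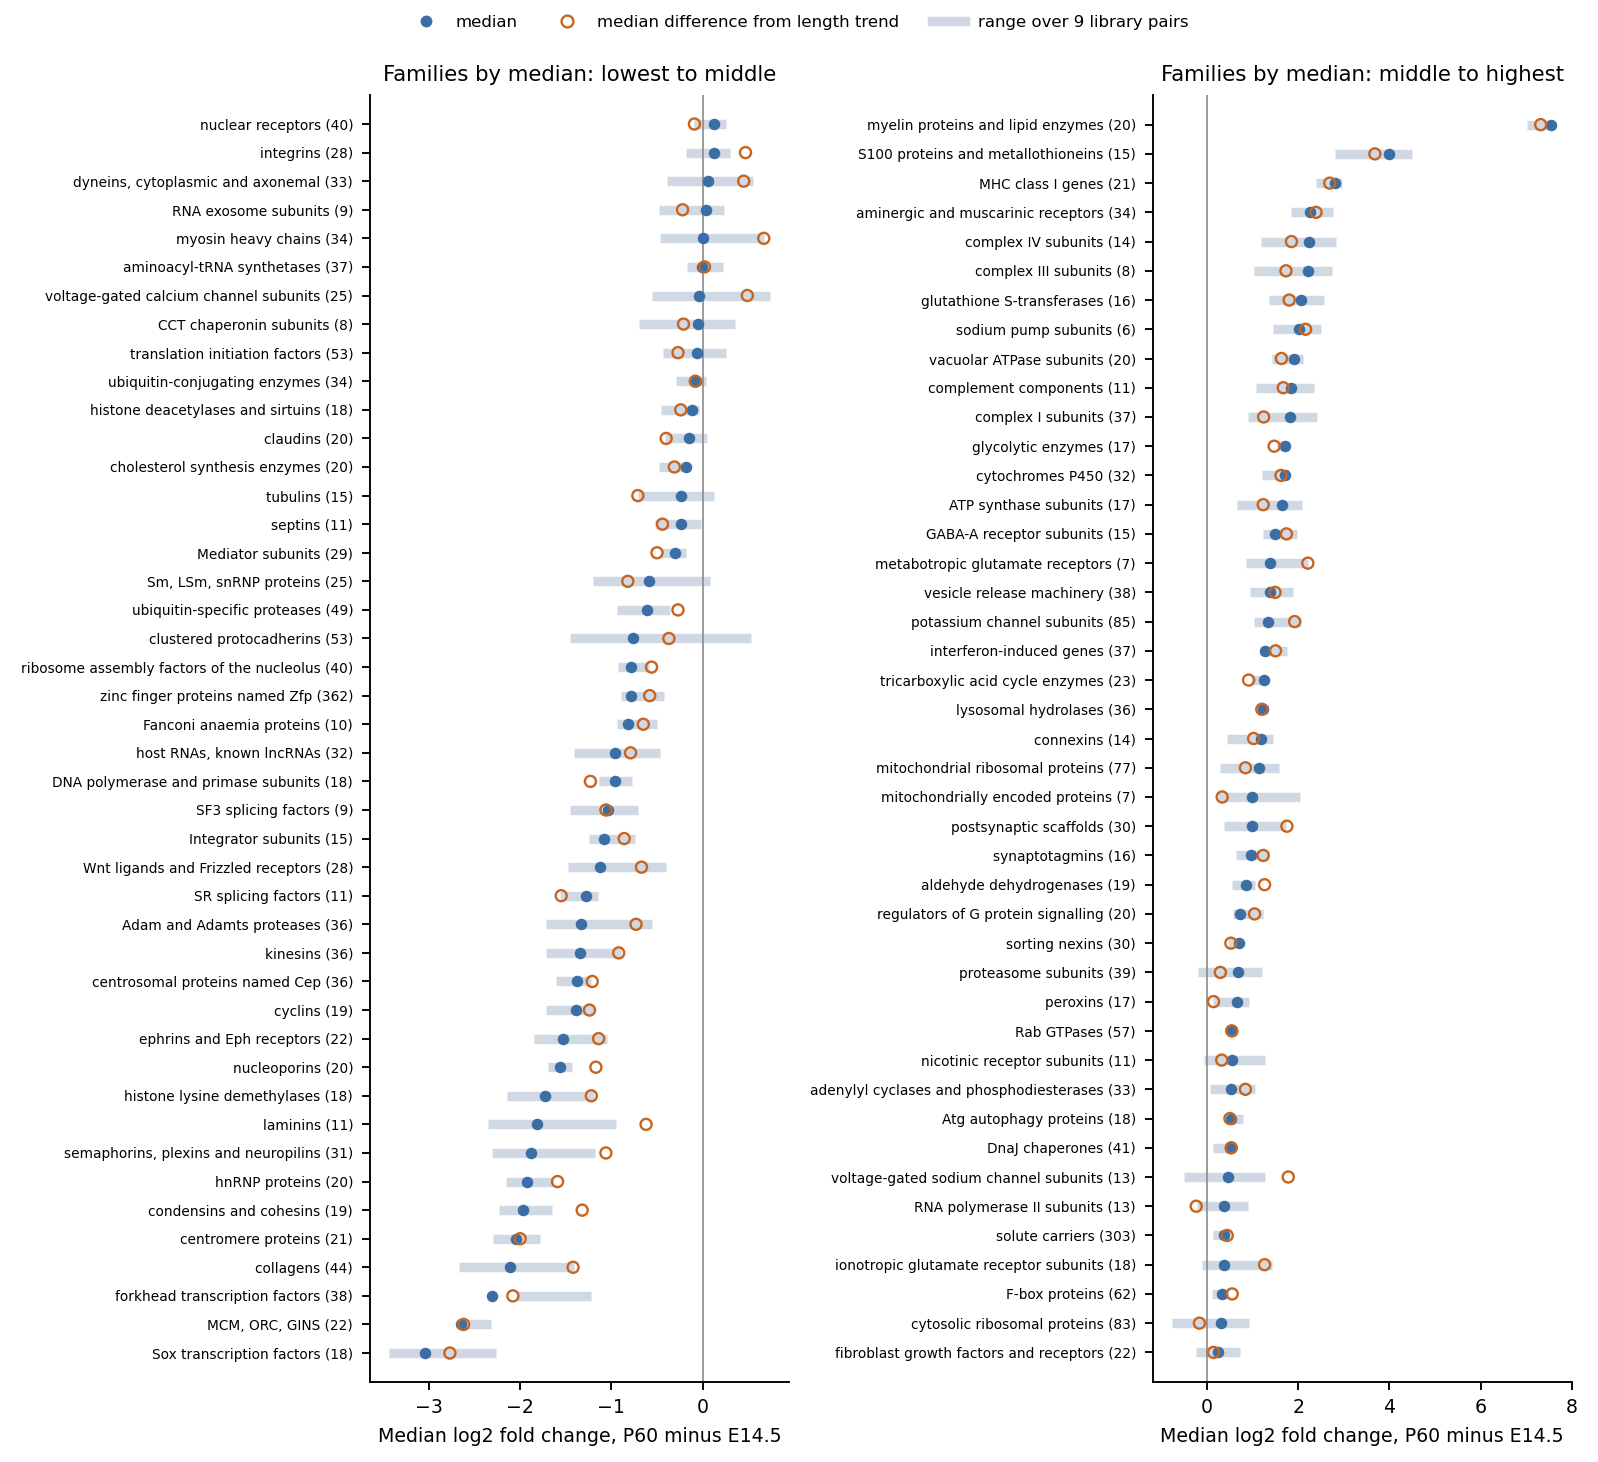
Median log2 fold change (P60 minus E14.5) of each of the 87 families, with tested members in brackets; filled points are medians of the test, open points medians after subtraction of the length trend, and bars the range of medians over the 9 library pairs, computed from log2 CPM with a prior count of 2, so that in families with low counts, such as the forkhead factors, the bar can miss the median. The lowest family is that of Sox factors at -3.04 and the highest that of myelin genes at 7.54.

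The genes of the respiratory chain rose nearly without exception. Complex I, which passes electrons from NADH to ubiquinone, had 36 of 37 tested members higher and none lower, with a median change of 1.82. All 8 tested members of complex III and all 14 of complex IV rose (medians 2.22 and 2.24), as did 16 of 17 ATP synthase subunits (1.65). The member of the complex I list that was not called was Ndufa4l2, which is an isoform of a subunit now placed in complex IV. These transcripts are short, and the trend at their length was 0.42 to 0.55, so the distance from the trend was 1.24 for complex I, 1.73 for complex III, 1.85 for complex IV and 1.23 for ATP synthase. In the matched pair the medians were 0.89, 1.03, 1.18 and 0.65. The direction thus held in each reading, and the size was smaller in the matched pair than in the test over all libraries.

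Ndufb9, an accessory subunit of complex I, stood at 137, 77.7 and 73.5 CPM at E14.5 and 726, 367 and 775 CPM at P60 (log2 change 2.70, SE 0.33, adjusted p = 2.2e-05). Its lowest P60 library was the second and its highest E14.5 library the first, the pair that also stood apart by length, and the stages did not overlap. Cox6a2, the heart and muscle isoform of a complex IV subunit, which is also known from fast-spiking interneurons, was nearly absent at E14.5 with 0.03, 0.06 and 0 CPM and stood at 21.9, 19.7 and 23.5 CPM at P60. Cox7a1, a second heart and muscle isoform, rose by 3.2 (SE 0.46), and its ubiquitous relative Cox7a2l by 1.08 (SE 0.30), a difference that was -0.003 in the matched pair.

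Messages encoded in mitochondrial DNA depended on the libraries compared. Of 13 protein genes 7 passed the filter, and 5 of these were called higher, with a median of 0.98, which moved to 0.63 without P60 library 2 and to 0.68 without E14.5 library 1. In the matched pair the median was 2.04, above those of the nuclear-encoded complexes, while over all libraries it was below them, and the difference was not tested. Under the length offset only mt-Nd6, a complex I subunit encoded on the other strand from the rest, was called (1.13, adjusted p = 0.0033, edgeR). mt-Nd6 had 211, 211 and 220 CPM at E14.5 and 537, 743 and 530 CPM at P60, with no overlap. By contrast mt-Co1 had 2995, 3891 and 4130 CPM at E14.5 and 4841, 6876 and 4370 CPM at P60 and was not called (0.55, SE 0.26, adjusted p = 0.072). The mitochondrial ribosomal RNAs showed the largest gains in CPM of all: mt-Rnr2 went from 243 to 281 CPM at E14.5 to 8726 to 14480 CPM at P60. mt-Co2, mt-Co3, mt-Atp6, mt-Atp8 and mt-Nd4l were listed at 0 in all 6 libraries, although these are abundant messages in any brain cell, so no level is given for them.

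Central carbon metabolism rose with the respiratory chain, and the length trend at these genes was small. Of 17 glycolytic enzymes 15 were higher and 1 lower (median 1.71, distance from trend 1.47, matched pair 1.53). Eno2, the neuronal enolase, had 52.5, 51.6 and 41.7 CPM at E14.5 and 1366, 1397 and 1362 CPM at P60, a 28.3-fold difference far beyond the spread within either stage. Aldoc, the aldolase of astrocytes and of Purkinje cell stripes, rose 17.0-fold and Aldoa, the main aldolase, 13.3-fold. The exception was Hk2, the hexokinase of dividing and insulin-responsive cells, which stood at 23.7, 18.3 and 19.2 CPM at E14.5 and 1.80, 3.06 and 1.62 CPM at P60 (-3.24, SE 0.24). Hk1, the main brain hexokinase, had 195, 195 and 168 CPM at E14.5 and 249, 365 and 207 CPM at P60 (0.56, SE 0.21, adjusted p = 0.032), a call that was lost without P60 library 2 (0.29), without E14.5 library 2 or 3 (0.59 and 0.49) and with scaling by library totals alone (0.42). Ldhb, the lactate dehydrogenase of oxidative tissue, rose by 2.72 (SE 0.18) and Ldha by 1.14 (SE 0.17).

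In the tricarboxylic acid cycle 20 of 23 enzymes were higher and 1 lower (median 1.24). Idh3a and Idh3b, subunits of the NAD-dependent isocitrate dehydrogenase of the cycle, rose 4.93-fold and 4.96-fold. Idh2, the NADP-dependent mitochondrial enzyme, went from 223, 147 and 150 CPM to 80.2, 72.1 and 88.9 CPM (-1.11, SE 0.19, adjusted p = 0.00035), so 2 isocitrate dehydrogenase systems of the same compartment moved in opposite directions. Enzymes of cholesterol synthesis were divided, with 3 of 20 higher and 8 lower and a median of -0.18, or -0.38 without E14.5 library 1. Sqle, which commits squalene to sterols, fell by 1.26 (SE 0.14), while Msmo1, a later demethylase, rose by 1.32 (SE 0.17).

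Cytosolic ribosomal proteins gave no settled direction. Of 83 tested, 19 were called higher and 6 lower, with a median of 0.30. Under the length offset 14 were higher and 32 lower, the distance from the trend was -0.17, and single library pairs ranged from -0.78, in the matched pair, to 0.91. The median was 0.64 without E14.5 library 1 and 0.12 without P60 library 3. Rplp0, a protein of the ribosomal stalk, went from 1212, 795 and 770 CPM to 590, 372 and 664 CPM (-0.77, SE 0.24, adjusted p = 0.014), and Rps21 from 384, 186 and 171 CPM to 846, 416 and 877 CPM. Rps26, a protein near the mRNA exit channel, was called lower (-0.94) but not without E14.5 library 1 (-0.41) or P60 library 2 (-0.83). Rpl22l1, an RNA-binding relative of Rpl22, rose by 1.64 (SE 0.27) and by 1.20 with the offset. Rps6kl1, called higher (1.07, SE 0.15), entered the list by its symbol and is a kinase-like protein, not a ribosomal protein. Rpl3l, also called higher (3.47, SE 0.51), had no more than 0.7 CPM in any of the 6 libraries. Counts of ribosomal protein genes can be split with their many processed pseudogenes and are uncertain to that extent.

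Mitochondrial ribosomal proteins, by comparison, had 67 of 77 members higher and 2 lower, 58 and 3 with the offset, and a positive median in all 9 pairs (0.28 to 1.58). Mrpl46 had 32.3, 22.9 and 22.6 CPM at E14.5 and 133, 64.8 and 134 CPM at P60. The factors that assemble ribosomes in the nucleolus were mostly lower, 26 of 40 with 3 higher (median -0.78). Ddx21, a nucleolar RNA helicase, fell 6.09-fold, from 117, 128 and 125 CPM to 18.0, 23.6 and 19.1 CPM. Initiation factors were mixed (11 higher and 20 lower of 53). Eif4ebp2, the brain's main repressor of cap-dependent initiation, fell by 4.04 (SE 0.42), and Eif5a2, an isoform of a factor that relieves stalled ribosomes, rose by 1.97 (SE 0.24).

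Proteins that bind and splice messenger RNA fell as a block. Of 20 hnRNP genes 19 were lower and none higher (median -1.93, distance from trend -1.59), and of 11 SR splicing factors 10 were lower and none higher (-1.28 and -1.55). Hnrnpa1, an abundant splicing regulator, had 1028, 858 and 856 CPM at E14.5 and 110, 124 and 113 CPM at P60 (-2.99, SE 0.15, adjusted p = 4.2e-08), and the same gene differed by -3.06 in the matched pair. Srsf1, which defines exons, fell 5.13-fold. The repressor of neuronal exons Ptbp1 fell by 3.29 (SE 0.26) and its neuronal paralog Ptbp2, which is known to peak in young neurons, by 1.46 (SE 0.16). Sm, LSm and snRNP proteins were less uniform, with 2 of 25 higher, 12 lower and a median of -0.59 (-0.25 without E14.5 library 1). Lsm14b, the member with the largest fall, is a translational regulator and not a core spliceosome protein. Snrpn, an imprinted Sm protein of neurons, rose by 1.46 (SE 0.18). Nucleoporins, which build the nuclear pore, were lower in 19 of 20 and higher in none (median -1.56, matched pair -1.43), with Nup188 at 67.2, 93.8 and 95.9 CPM against 7.90, 10.9 and 4.66 CPM.

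The general transcription machinery showed the length pattern inside single complexes. RNA polymerase II had 5 of 13 listed subunits higher and 3 lower. Its catalytic subunit Polr2a, with the longest transcript (6740 bases), stood at 230, 260 and 270 CPM at E14.5 and 22.9, 35.1 and 15.2 CPM at P60 (-3.38, SE 0.27, adjusted p = 9.5e-07). The small shared subunit Polr2k (601 bases) had 13.0, 6.30 and 5.98 CPM at E14.5 and 30.1, 14.2 and 30 CPM at P60 (1.56, SE 0.37, adjusted p = 0.0026). In the matched pair Polr2a differed by -2.71 and Polr2k by 0.13. The offset left Polr2a at -2.52 and Polr2k at 1.07 (adjusted p = 0.0014, edgeR) and turned the count of the complex to 4 higher and 5 lower. Polr2b, the second largest subunit, fell by 0.84 (SE 0.12), from 157 to 170 CPM to 85.7 to 97.7 CPM.

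Mediator, which links activators to RNA polymerase II, had 7 of 29 subunits higher and 15 lower, and the change fell with length at a rho of -0.74 over its members. The kinase-module subunits Med12, Med13 and Med13l, all with transcripts of 6940 bases or more, fell by 3.59 (SE 0.46), 2.65 (SE 0.31) and 2.5 (SE 0.31). Med12 had 29.1, 74.5 and 78.2 CPM at E14.5 and 4.40, 8.02 and 2.62 CPM at P60, and its change was -2.64 with the offset, where Med13 lay at -1.31 and Med13l at -1.29. Med12l, a paralog of Med12 with a transcript of 11006 bases, was called lower (-1.23, SE 0.38, adjusted p = 0.012) but lay at 0.17 with the offset (adjusted p = 0.46) and at 0.44 in the matched pair. Med21, a short subunit of the middle module, rose by 1.64 (SE 0.21), and Med9 of the same module by 1.27 (SE 0.17). Med14, the backbone of the complex, was called lower (-0.78, adjusted p = 0.025) but lay at 0.17 with the offset (adjusted p = 0.31). Integrator, which ends the synthesis of small nuclear RNAs and of paused transcripts, was lower in 13 of 15 subunits and higher in none (-1.08), in 12 with the offset.

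**Figure D4:**
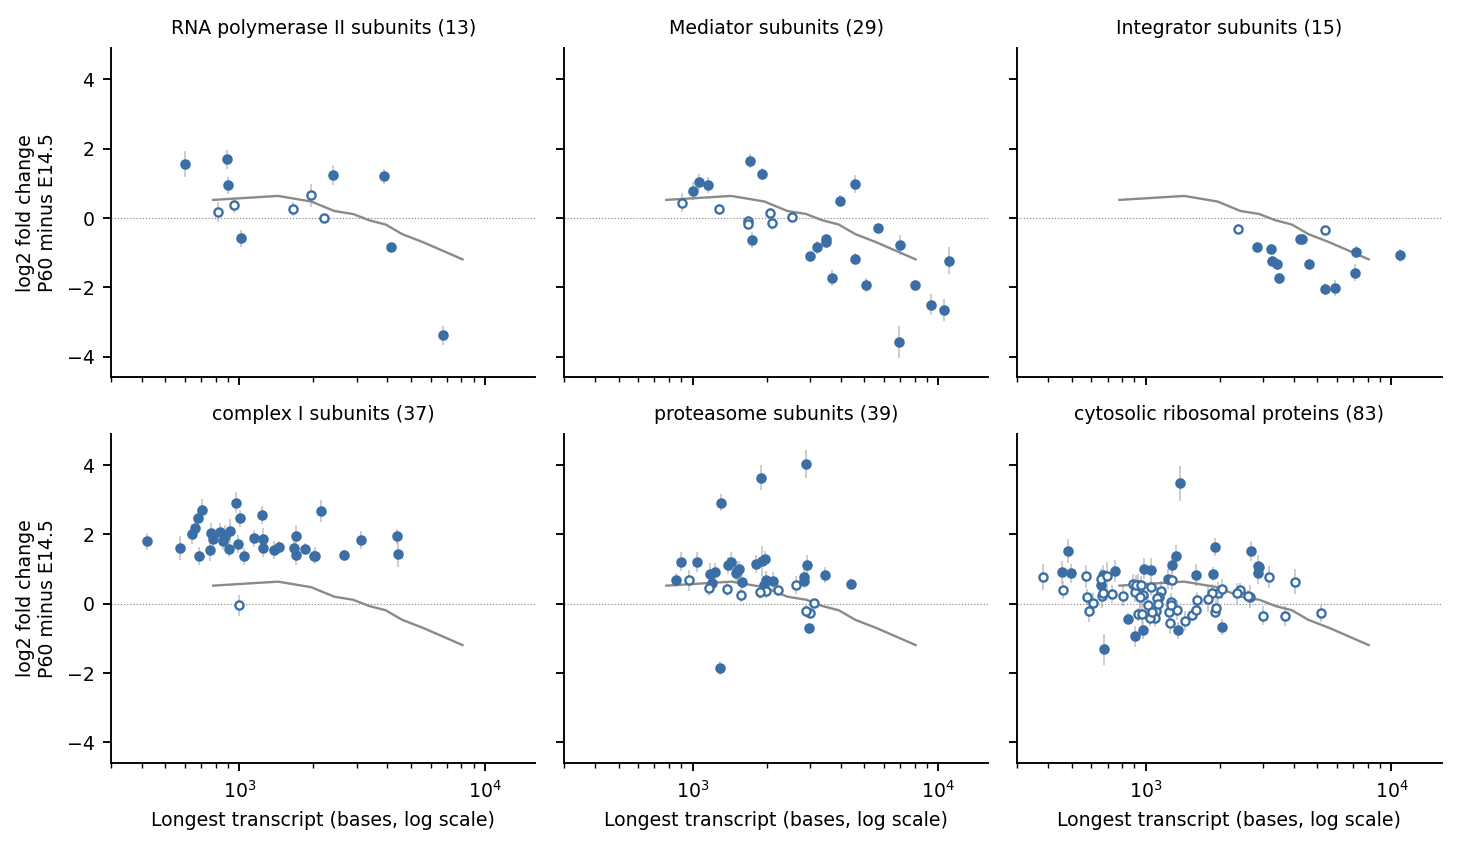
Log2 fold change (P60 minus E14.5) with its SE against the length of the longest transcript, for members of 6 complexes; filled points were called, open points were not, and the grey line joins the medians of all genes by length decile. Complex I lies above the line with all members but Ndufa4l2, most Integrator subunits and Med12, Med13 and Med13l lie below it, and the ribosomal proteins scatter around it.

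Chromatin modifiers and transcription factors were mainly lower. Histone lysine demethylases fell in 16 of 18 (median -1.73, distance from trend -1.22), and the largest fall was that of Y-linked Kdm5d, described above. Kdm6b, which removes the Polycomb mark, stood at 222, 184 and 181 CPM at E14.5 and 5.57, 7.08 and 3.57 CPM at P60. Histone deacetylases and sirtuins were divided (5 higher and 8 lower of 18): Hdac2, of the nuclear corepressor complexes, fell by 1.66 (SE 0.19), while Hdac11, a lone class member abundant in brain, rose by 3.00 (SE 0.18), and the mitochondrial deacetylase Sirt3 rose by 3.22 (SE 0.18). Forkhead factors were lower in 31 of 38 and higher in 1, with Foxm1, a driver of mitotic genes, falling by 6.45 (SE 0.21). Of 18 Sox factors 14 were lower and 2 higher, and Sox10, which specifies oligodendrocytes, rose by 2.99.

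The 362 zinc finger proteins named Zfp had 208 members lower and 50 higher, with a median of -0.79 and -0.58 from the trend. Zfp57, which keeps imprints in the early embryo, fell from 202, 187 and 190 CPM to 2.40, 2.26 and 3.21 CPM. Zfp365, known in neurite growth and genome stability, went from 4.88, 7.0 and 5.98 CPM to 323, 415 and 338 CPM, a change of 5.91 in the direction opposite to most of its family. Nuclear receptors were evenly divided (17 higher and 16 lower of 40). Nr3c2, the mineralocorticoid receptor of the hippocampus, rose by 4.80 (SE 0.23). Nr2e1, the receptor that maintains neural stem cells, fell by 2.70 (SE 0.20).

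Families of the cell cycle and DNA repair were mainly lower, with medians from -2.65 to -0.82 over the groups named here. The median nearest 0 was that of Fanconi anaemia proteins, with 6 of 10 lower and none higher. Of 22 MCM, ORC and GINS genes, which license and open replication origins, 17 were lower and 3 higher (median -2.65, distance from trend -2.62, matched pair -2.62). Mcm3, part of the helicase ring, had 105, 79.8 and 85.2 CPM at E14.5 and 3.63, 4.17 and 4.74 CPM at P60 (-4.42, SE 0.18). Orc5, of the origin recognition complex, was 1 of the 3 that rose, from 23.3 to 29.5 CPM to 37.1 to 40.1 CPM. Among DNA polymerase and primase subunits 12 of 18 were lower: Pola1, the catalytic subunit that starts each new strand, fell 5.89-fold, from 34.1, 31.5 and 32.2 CPM to 5.83, 4.55 and 6.22 CPM. Pold4, a small accessory subunit, rose by 1.99 (SE 0.20).

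Promoters of 2 of these replication genes are shown because they carry both of the letter groups counted in this family, in RefSeq sequence of build GRCm38.p6 from 250 bases before to 50 bases after the annotated start. Mcm3 lies at chr1:20820263-20820562 and Pola1 at chrX:93632106-93632405, each on the minus strand and printed 5′ to 3′ on that strand. Capitals mark the E2F letters TTCCCGC or TTGGCGC and the CCAAT box, in either orientation, and ATTGG, the reverse complement of CCAAT, can overlap TTGGCGC.
Mcm3: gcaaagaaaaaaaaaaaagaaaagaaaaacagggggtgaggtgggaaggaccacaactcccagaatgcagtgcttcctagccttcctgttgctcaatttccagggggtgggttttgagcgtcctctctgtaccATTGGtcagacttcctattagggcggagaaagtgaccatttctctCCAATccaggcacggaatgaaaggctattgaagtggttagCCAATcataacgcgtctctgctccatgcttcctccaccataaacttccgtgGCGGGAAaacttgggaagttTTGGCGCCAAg
Pola1: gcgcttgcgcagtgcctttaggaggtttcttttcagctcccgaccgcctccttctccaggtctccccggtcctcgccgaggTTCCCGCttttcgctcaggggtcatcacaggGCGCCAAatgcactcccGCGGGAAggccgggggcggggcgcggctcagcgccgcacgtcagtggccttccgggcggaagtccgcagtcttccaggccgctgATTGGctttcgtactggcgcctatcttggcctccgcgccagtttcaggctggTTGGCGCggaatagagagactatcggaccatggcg
E2F letters were found in 9 of 18 promoters of the MCM, ORC and GINS genes (50%), in 9 of 14 of DNA polymerase subunits (64.3%) and in 9 of 15 of condensins and cohesins (60%), against 11.8% of 12079 promoters of tested protein-coding genes. The share was 55.6% in Fanconi anaemia proteins, 38.1% in centromere proteins and 30% in Cep proteins, but 14.3% in cyclins and 10.3% in kinesins. Among all genes at least 2-fold lower at P60 it was 13.8%, and among those at least 2-fold higher 9.13%. RNA polymerase II subunits, which had no common direction, had 40%. Some families that were mostly higher also lay above the share of all promoters: ATP synthase subunits (30.8%), tricarboxylic acid cycle enzymes (25%) and glycolytic enzymes (23.5%). Complex I subunits, also mostly higher, lay below it (3.12%). CCAAT stood in 77.8% of promoters of the MCM, ORC and GINS genes, 35.7% of DNA polymerase subunits and 46.7% of condensins and cohesins. Among all promoters it stood in 38.1%. High shares of CCAAT were not particular to families that fell. The share was 88.9% in MHC class I genes and 78.6% in glutathione S-transferases, both mostly higher, and 81.8% in Integrator subunits, mostly lower. E2F proteins switch on genes of DNA synthesis and NF-Y binds CCAAT. A match of letters is a description of the window and not a measured site.

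Mitotic families fell in the same way. Centromere proteins were lower in 19 of 21 and higher in none (-2.05), condensins and cohesins lower in 17 of 19 and higher in 1 (-1.97), and Cep proteins of the centrosome lower in 31 of 36 and higher in 1 (-1.38). Against the length trend these medians were -2.0, -1.32 and -1.21, and the transcripts of condensins and cohesins are the longest of the 3 groups, with a median of 5404 bases. Ncapg, a condensin subunit, had 33.8, 29.5 and 31.2 CPM at E14.5 and 0.37, 0.18 and 0.18 CPM at P60. Ccna2, a cyclin of S phase and mitosis, fell 136-fold. Among the D cyclins, Ccnd2 fell from 589, 667 and 655 CPM to 35.3, 44.3 and 38.2 CPM, while Ccnd1 fell by only 1.39 (SE 0.24). Ccng1, a p53 target unlike the mitotic cyclins, rose by 1.80 (SE 0.19). The median of all 19 cyclins was -1.39, -1.63 without E14.5 library 1 and -1.18 without E14.5 library 3.

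Genes of the lysosome and proteasome were mostly higher, those of the proteasome less firmly, and ubiquitin-specific proteases were mostly lower. Lysosomal hydrolases rose in 28 of 36 and fell in none (median 1.22, matched pair 1.19), and the vacuolar ATPase that acidifies lysosomes and synaptic vesicles rose in 17 of 20 with none lower (1.91). Atp6v1g2, a brain isoform of the proton pump, went from 39.1, 34.5 and 28.8 CPM to 580, 605 and 573 CPM. Proteasome subunits were higher in 26 of 39 and lower in 2, but in 15 and 4 with the offset, and the median of 0.68 became -0.20 in the matched pair and 1.01 without E14.5 library 1. Psmb10 rose by 2.92 (SE 0.24) and Psmb8 by 3.64 (SE 0.37), both catalytic subunits of the immunoproteasome. Psmb5, the constitutive counterpart of Psmb8, rose by 1.21 (SE 0.28). Psmc3ip, the largest fall in the list by symbol, is a recombination factor and not a proteasome subunit. Ubiquitin-specific proteases were lower in 30 of 49 and higher in 9, and in 22 and 16 with the offset. CCT chaperonin subunits, which fold actin and tubulin, had none of 8 higher and 1 lower.

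The cytoskeleton changed by isoform. Tubulins of young neurons made up 4 of the 10 largest losses in CPM: Tubb2b had 4634, 3529 and 3241 CPM at E14.5 and 165, 190 and 166 CPM at P60, Tubb5 fell 5.10-fold, Tubb3 4.24-fold and Tuba1a 2.82-fold. Tubb4a, a tubulin of myelinating glia and mature neurons, rose by 1.01 (SE 0.21), and Tuba8 from 0.15 to 0.17 CPM to 11.8 to 12.9 CPM. The tubulin family as a whole had 6 members higher and 7 lower of 15. Among the other large losses were Dpysl3, a collapsin response mediator of growth cones (65.4-fold), Map1b, a microtubule protein of growing axons (10.1-fold), and the elongation factor Eef2 (3.15-fold).

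Kinesins were lower in 25 of 36 and higher in 8, and among the largest falls was that of Kif15, a spindle motor, with 50.1, 43.2 and 50.3 CPM at E14.5 and 0.23, 0.35 and 0.44 CPM at P60. Kif17, a motor of dendrites, rose by 2.87 (SE 0.21). The dynein heavy chain Dync1h1, with a transcript of 14342 bases, changed direction with the offset. Dync1h1 had 570, 885 and 859 CPM at E14.5 and 288, 342 and 229 CPM at P60 (-1.43, SE 0.22, adjusted p = 0.00013), and lay at 0.13 with the offset (adjusted p = 0.31) and at -0.74 in the matched pair. Its short partner Dync1i1, the neuronal intermediate chain, rose 7.42-fold. The copies of Dynlt1 in the dynein list are near identical, and their counts are uncertain. Septins, filament proteins beneath the membrane, were split evenly (5 higher and 5 lower of 11), with Sept4 of adult glia and neurons up 47.2-fold and Sept11 down 3.98-fold. Rab GTPases, which direct vesicles, were higher in 33 of 57 and lower in 11 at a median of 0.54 that all 9 pairs shared (0.51 to 0.65). Rab26, of secretory vesicles, rose 50.4-fold.

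Ion channels rose more clearly once length was considered. Potassium channel subunits were higher in 54 of 85 and lower in 14 (median 1.34), with a distance from the trend of 1.92 and a median of 2.05 in the matched pair. Kcnj4, an inward rectifier of forebrain neurons, had 1.45, 0.87 and 1.12 CPM at E14.5 and 72.7, 101 and 77.0 CPM at P60. Kcnj16, a rectifier subunit of astrocytes, rose by 5.26 (SE 0.37), and Kcnk10, a stretch-sensitive leak channel, fell by 2.74 (SE 0.17). The M-current channel subunit Kcnq3 had no call over all libraries (-0.62, adjusted p = 0.12). Kcnq3 was called lower without P60 library 2 (-1.12) and with a replicate block (-0.72), and higher with the length offset (0.72), so no direction can be given for it.

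Sodium channels were similarly dependent on length. The 13 voltage-gated sodium channel subunits had 5 higher and 5 lower with a median of 0.46, which was 0.08 without P60 library 2, but 7 higher and 4 lower with the offset at a median of 1.78. Scn1a, the alpha subunit of fast-spiking cells, rose by 3.18 (SE 0.39) while the embryonic Scn3a, of like length, fell by 2.71 (SE 0.32). Voltage-gated calcium channel subunits had 8 of 25 higher and 11 lower, and 13 higher and 9 lower with the offset, so the majority direction turned. The sodium pump, which restores ion gradients, rose in all 6 tested subunits (median 2.02), with Atp1b1 from 60.2, 87.8 and 77.9 CPM to 1556, 1643 and 1513 CPM.

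Receptors for fast inhibition were mostly higher. Of 15 GABA-A receptor subunits 12 were higher and none lower (median 1.49, distance from trend 1.74). Gabrd, of extrasynaptic receptors, went from 1.12, 0.78 and 0.52 CPM to 115, 123 and 111 CPM. Gabra2, an alpha subunit prominent in the embryo, had 23.5 to 27.3 CPM and then 30.9 to 37.1 CPM (0.40, SE 0.15, adjusted p = 0.030), a call that was lost without P60 library 2 (0.31), without either of E14.5 libraries 2 and 3 (0.36 and 0.38) and with scaling by library totals alone (0.27). The chloride exporter Slc12a5, on which inhibition by GABA depends, rose by 1.63 (SE 0.29), and the chloride importer Slc12a2 also rose, by 0.56 (SE 0.14).

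Ionotropic glutamate receptors had 8 of 18 subunits higher and 6 lower, and 12 and 4 with the offset. Within the NMDA receptor, Grin2a, the adult subunit, had 1.84, 3.89 and 3.45 CPM at E14.5 and 41.0, 60.6 and 32.2 CPM at P60 (3.86, SE 0.33). Grin2b, the early subunit, had 93.1, 162 and 132 CPM at E14.5 and 33.7, 58.2 and 17.5 CPM at P60 (-1.82, SE 0.44, adjusted p = 0.0031). The Grin2b transcript, 24060 bases, is the longer of the pair, and with the offset Grin2b was no longer called (-0.07, adjusted p = 0.85) while Grin2a rose further (5.44). The libraries of the stages did not overlap for either gene. Metabotropic glutamate receptors rose in 6 of 7 with none lower, and receptors for amines and acetylcholine of the muscarinic type in 29 of 34 with 1 lower, the highest median of the channel and receptor families (2.25). Chrm1, the main muscarinic receptor of forebrain, had 3.41, 5.57 and 3.28 CPM at E14.5 and 98.4, 155 and 93.3 CPM at P60.

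At the synapse, vesicle release proteins were higher in 27 of 38 and lower in 4, and 34 and 3 with the offset (median 1.37, matched pair 1.73). Snap25, a SNARE of the plasma membrane, had 96.4, 115 and 97.3 CPM at E14.5 and 3175, 3199 and 3072 CPM at P60. Slc17a7, which loads vesicles with glutamate in the cortex, rose by 4.88 (SE 0.28) and Cplx3, a complexin of ribbon and subplate neurons, by 6.60 (SE 0.24). Erc1, an active zone scaffold with a transcript of 8760 bases, fell by 2.93 (SE 0.33) and by 1.78 with the offset. Postsynaptic scaffolds were higher in 21 of 30 and lower in 7, and their median of 0.98 became 1.75 against the trend. Camk2a, the kinase of synaptic plasticity, rose from 38.8, 48.5 and 46.1 CPM to 1058, 1527 and 804 CPM. Nlgn2, an adhesion molecule of inhibitory synapses, fell by 1.84 (SE 0.24) and by 1.23 with the offset. Rgs14, a signalling brake known from hippocampal area CA2, rose from 0.54, 0.53 and 0.63 CPM to 115, 113 and 128 CPM.

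Clustered protocadherins, which give neurons individual surface codes, depended on single libraries. Of 53 tested 23 were lower and 6 higher (median -0.76). The median was -1.16 without P60 library 2, -0.55 without P60 library 1 and 0.53 in the matched pair. Pcdhgc3 had 29.7, 52.2 and 50.3 CPM at E14.5 and 10.1, 17.8 and 9.02 CPM at P60, with E14.5 library 1 the lowest of its stage and P60 library 2 the highest. Pcdhgc5 went against the rest, from 3.41, 4.28 and 4.52 CPM to 26.4, 49.8 and 20.7 CPM (2.99, SE 0.30), in a cluster where isoforms share their last exons and counts are uncertain.

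Families of axon guidance and matrix were mostly lower, by less once length was considered. Semaphorins, plexins and neuropilins, which repel and steer axons, were lower in 22 of 31 and higher in 5 (median -1.88, distance from trend -1.06, matched pair -1.18). Plxna3, a semaphorin receptor, had 175, 256 and 263 CPM at E14.5 and 9.54, 14.6 and 7.54 CPM at P60. Plxnb3, of oligodendrocytes, rose by 5.29 (SE 0.35). Eph receptors and ephrins were lower in 15 of 22 and higher in 5, with Ephb2 down 19.4-fold. Wnt ligands and Frizzled receptors were lower in 17 of 28 and higher in 8, at a median of -1.12 that was -0.67 against the trend and -0.40 in the matched pair. Fibroblast growth factors had no common direction (9 higher and 7 lower of 22): Fgf15, of embryonic midline and forebrain, had 21.3, 17.3 and 19.8 CPM at E14.5 and 0.07, 0.06 and 0.15 CPM at P60, and Fgf1 went from 0.18, 0.70 and 0.89 CPM to 101, 101 and 95.0 CPM.

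Collagens were lower in 32 of 44 and higher in 4 (median -2.11, distance from trend -1.42, matched pair -1.41). Col3a1, a collagen of fibroblasts, went from 198, 284 and 322 CPM to 5.6, 3.76 and 3.07 CPM, and Col2a1, of cartilage, from 84.1, 121 and 145 CPM to 1.00, 1.06 and 1.15 CPM. Markers of meninges and fibroblasts, of which 6 of 7 were lower and 1 higher, moved with them. Of 5 markers of cartilage and bone 3 were higher and 1 lower, and their sum fell from 87.3 to 158 CPM to 7.13 to 9.11 CPM, nearly all of it Col2a1 at E14.5. Their part in the fall of collagens was not tested. Col4a3bp, 1 of the 4 gains in this list, is a ceramide transporter and no collagen. Laminins of basement membranes were lower in 7 of 11 and higher in 2, at a median of -1.81 that became -0.62 against the trend, since their transcripts have a median of 6046 bases. Integrins, their receptors, were divided (11 higher and 10 lower of 28), with Itgam of microglia up by 3.15 (SE 0.24) and Itga5, the fibronectin receptor, down by 3.19 (SE 0.23).

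Glial genes held the largest rises. All 20 tested myelin proteins and lipid enzymes were higher, with a median of 7.54 that was 7.32 against the trend and 7.26 in the matched pair. Mbp, the basic protein that compacts the sheath, had 21.4, 39.2 and 30.6 CPM at E14.5 and 7824, 6364 and 7353 CPM at P60. Fa2h, which hydroxylates the fatty acids of myelin lipids, was at 0, 0.06 and 0.17 CPM and then at 37.6, 52.6 and 32.1 CPM. Connexins rose in 7 of 14 and fell in 4, and the largest gains were in connexins of oligodendrocytes: Gjb1 rose by 7.71 (SE 0.34) and Gjc3 by 7.44 (SE 0.45), while Gjc1, of the vascular wall and early neurons, fell by 2.60 (SE 0.14). The connexin median of 1.18 was 0.80 without P60 library 3. Claudins split likewise (6 higher and 6 lower of 20), with Cldn10 up 145-fold.

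Detoxifying and immune families followed. Glutathione S-transferases rose in 15 of 16 with none lower (median 2.05, or 2.51 without E14.5 library 1), and cytochromes P450 in 19 of 32 with 8 lower. Cyp26b1, which breaks down retinoic acid, was among the falls with 20.4, 66.1 and 56.3 CPM at E14.5 and 5.83, 9.19 and 4.21 CPM at P60. S100 proteins and metallothioneins rose in 11 of 15 and fell in 2 (4.00): S100a1, a calcium sensor, had 2.59, 1.60 and 1.44 CPM at E14.5 and 240, 148 and 274 CPM at P60. MHC class I genes, whose sequences are alike and whose counts are uncertain, rose in 17 of 21 and fell in 2, and interferon-induced genes in 22 of 37 with 8 lower. Ifit3, an antiviral protein, rose by 5.77 (SE 0.23), from 0.27 to 0.31 CPM to 14.3 to 18.3 CPM. Complement C4b, from 0.09, 0.31 and 0.03 CPM to 23.5, 25.2 and 26.8 CPM, rose by 7.41 (SE 0.48), and Cfp, a stabiliser of the alternative pathway, fell by 1.96 (SE 0.23). The 6 microglial markers summed to 52.3 to 60.9 CPM at E14.5 and 287 to 333 CPM at P60 beside these, and their part in the immune gains was not tested.

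Several classes of noncoding genes were mainly lower. Small nucleolar RNAs, guides of ribosomal RNA modification with a median annotated length of 94.5 bases, were lower in 61 of 82 and higher in 4 (median -2.46). Genes annotated as sense intronic were lower in 31 of 37 and higher in 2, and TEC genes, models that await experimental support, in 209 of 300 with 28 higher. Protein-coding genes had 5940 of 15471 higher and 5977 lower. Of 60 small nucleolar RNAs inside a tested coding gene, 54 lay below their host, with a median of -2.5 against -0.16 for the hosts, and the same held for 95 of 113 TEC genes (-4.02 against -0.92) and 31 of 33 sense intronic genes (-3.05 against -0.36). Snora33, inside an intron of the ribosomal protein gene Rps12, differed by -2.58 where Rps12 differed by 0.14. Reads of a gene inside an intron cannot be told apart from reads of the host's unspliced RNA in these counts. Among long noncoding RNAs H19, an imprinted growth regulator, had 242, 258 and 285 CPM at E14.5 and 0.30, 0.09 and 0.35 CPM at P60, and Mir22hg rose by 3.35 (SE 0.20).

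Over all genes, the share that was higher at P60 fell with the CpG content of the promoter. Promoters from RefSeq were at hand for 12079 of the 15471 tested protein-coding genes. Where the observed number of CpG was at most 0.2 of that expected from the base composition, 46.4% of 892 genes were at least 2-fold higher and 24.3% at least 2-fold lower at P60. Where it exceeded 1.0, 199 of 1370 genes were at least 2-fold higher and 36.6% lower. The median distance from the length trend fell from 0.81 to -0.33 over the 6 classes, so the order remained with transcript length taken into account. Promoters of interferon-induced genes had a median of 0.263, those of myelin genes 0.357, potassium channels 0.462 and hnRNP genes 1.034, against 0.734 over all. Other families went against this order: mitochondrial ribosomal proteins (0.818), complex IV (0.815) and tricarboxylic acid cycle enzymes (0.844), which were mostly higher, lay above the overall median, and collagens (0.47) and the 5 laminins with a promoter (0.276), mostly lower, lay below it.

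**Figure D5:**
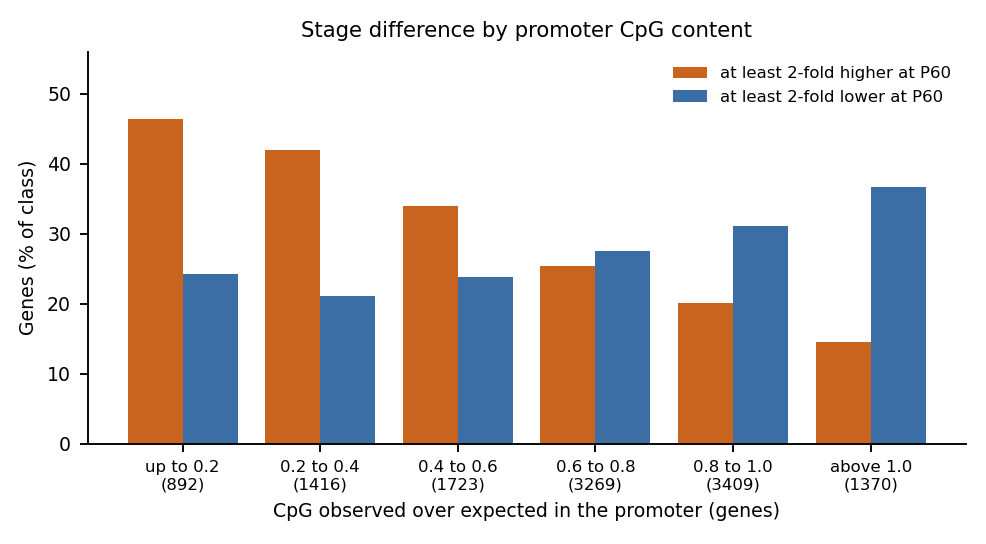
Percentage of genes at least 2-fold higher or lower at P60 by class of CpG observed over expected in the 300 bases around the start, with genes per class in brackets. The share higher falls from class to class, from 46.4% in the lowest and 20.1% in the last but one, and the share lower goes from 24.3% to 36.6%, with its lowest value, 21.1%, in the class from 0.2 to 0.4.

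A CpG-rich and a CpG-poor example are shown with each CpG in capitals, again from RefSeq in build GRCm38.p6. Cenpf, a kinetochore protein, lies at chr1:189688037-189688336 on the minus strand, with 31 CpG in 300 bases (0.96 of expectation). Opalin, an oligodendrocyte membrane protein, lies at chr19:41077064-41077363 on the minus strand, with 4 CpG (0.18).
Cenpf: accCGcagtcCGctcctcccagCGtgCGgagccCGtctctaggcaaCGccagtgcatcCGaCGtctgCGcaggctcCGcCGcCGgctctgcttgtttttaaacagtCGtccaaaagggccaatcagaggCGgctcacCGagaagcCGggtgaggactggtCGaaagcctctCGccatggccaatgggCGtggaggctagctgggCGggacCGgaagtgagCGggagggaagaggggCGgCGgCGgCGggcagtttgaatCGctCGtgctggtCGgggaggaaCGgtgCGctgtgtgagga
Opalin: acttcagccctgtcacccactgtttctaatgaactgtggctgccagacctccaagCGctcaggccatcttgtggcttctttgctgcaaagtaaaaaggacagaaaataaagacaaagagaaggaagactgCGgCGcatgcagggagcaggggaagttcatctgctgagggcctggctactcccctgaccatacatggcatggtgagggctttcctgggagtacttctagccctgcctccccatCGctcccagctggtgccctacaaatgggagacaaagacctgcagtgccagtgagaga
Cenpf had 89.3, 90.6 and 95.3 CPM at E14.5 and 1.40, 1.09 and 1.30 CPM at P60, and fell by 6.18 (SE 0.17). Opalin had 0.03, 0.20 and 0.03 CPM at E14.5 and 113, 70.0 and 125 CPM at P60, and rose by 10.15 (SE 0.47). Opalin is from the lowest class and Cenpf from the class of 0.8 to 1.0, and both were chosen with their values known.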

How the data were processed

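RNA sequencing libraries of E14.5 brain and P60 central nervous system, 3 per stage, were compared. The authors deposited raw read counts per gene. The tools named per the submitters' processing notes are Trimmomatic 0.36 for trimming and STAR 2.5.2b for alignment, with build mm10. How reads were assigned to genes (program, annotation, strand) is not given in the sources used here, and overlapping genes may share reads. Totals were 31288920 to 35619093 counts. The common dispersion of the fit was 0.0394, a coefficient of variation of 19.9%, so the spread between libraries and not depth limits abundant genes.

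Of 45706 identifiers, 45143 matched GENCODE M21 (GRCm38), the source of symbols and transcript lengths, and 16156 held no read. All 9 libraries of the series, which include 3 of E9.5, entered a single robust quasi-likelihood fit (edgeR 4.0.16 under R 4.3.3) after TMM scaling and a low-count filter set by stage (filterByExpr), with the contrast P60 minus E14.5 tested two-sided and Benjamini-Hochberg adjusted over 17971 genes at 0.05. The SE is the log2 change divided by the square root of F. CPM of single genes are counts divided by TMM-scaled library sizes, marker sums and shares of reads use the totals alone, and log2 CPM used a prior count of 2. The length trend was a lowess curve (statsmodels 0.14.6) of the change on the log2 of the longest transcript. For the length offset, a lowess curve (span 0.3) of each library's log2 CPM minus the gene's mean was given to edgeR as an offset. A fit of simulated counts recovered 61% of 2-fold and 98% of 4-fold changes of 200 altered genes among 17485, and 5.36% of its calls were genes left unaltered. The simulation gave all genes the common dispersion, and the unaltered genes had equal means in all stages and no length trend. In the data 76.1% of genes were called, so these rates show that the code works and are not the error rates of the real test.

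Families were set by symbol patterns or lists. The members and lists were chosen with earlier results of these data known. Named genes were the called members of a family with the largest changes at 10 CPM or more in the higher stage (5 CPM for receptors and channels) and no overlap between stages, up to 3 in the main direction and 1 in the other. Added to these were the 10 largest gains and losses in CPM, fixed gene pairs and the most abundant marker of each list. Bsn, Cntnap2, Mtor, Kdm5d, Xist, Rplp0, Rps12, Snora33, Polr2b, Med9, Med14, Med12l, Ndufa4l2 and mt-Co1 were chosen after their values were seen. Promoter sequences came from RefSeq (GRCm38.p6). Alternatives were DESeq2 1.42.0, other scalings and filters, a fit of the 6 libraries alone, a replicate block and leaving out each library.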

Additional observations from a re-analysis of the deposited data

How the results depend on the processing

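The number of genes called was 13681, and ranged from 12768 to 13925 when 1 library was left out. The share of called genes that were higher was 48.2%. It was 51.0% with the 6 libraries alone, 51.1% with DESeq2 and with RLE scaling, 50.3% with the length offset, with the offset and a replicate block together, and with no filter, 52.7% with upper quartile scaling and 44.5% with library totals only, and the median change of all genes moved with the scaling from -0.20 (library totals) over -0.06 (TMM) and 0.03 (RLE) to 0.10 (upper quartile). The length slope of -0.35 (rho -0.252) was -0.543 with a filter of 1 CPM in 3 libraries, -0.024 (rho -0.077) with no filter, -0.729 for protein-coding genes, -0.77 (rho -0.393) at 10 CPM or more and -0.071 (rho -0.074) in the pair P60 library 2 and E14.5 library 1, a comparison added after seeing the data; the cause was not tested. Of 364 called named genes Dync1h1 changed sign with the length offset (0.13, with or without the replicate block), and Cox7a2l (-0.003) and Pomc (-0.254) did so in the single pair. Pomc had 3.18 to 11.5 CPM and was the most abundant of 7 listed pituitary markers, of which only 2 had enough reads to test. Named genes without a call also changed sign, among them Kcnq3 with the offset and in the single pair. Deviations from the stage mean correlated at 0.171, 0.337 and -0.224 between same-numbered libraries, and at -0.413 to 0.34 between the others. With 3 libraries behind each mean the deviations depend on each other, so these values cannot decide whether replicate numbers pair the samples. The fit with a replicate block called 14015 genes. Family medians moved by more than the spread between library pairs in 50 of 87 families with the length offset, in 68 in the single pair, and in at most 7 when a library was left out. Genes near the filter limit the reading of length, since their counts are few.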
